A study of Homo sapiens with 11 samples.

Results

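The BCL2 family decides whether a cell opens the outer membrane of its mitochondria and dies by apoptosis. Expression of 10 of its genes was followed here in an endometrial cancer cell line: the anti-apoptotic BCL2, BCL2L1 and MCL1, the BH3-only BCL2L11, BBC3, PMAIP1, BIK and BMF, and the effectors BAX and BAK1. They were taken from the count table by matching Ensembl gene IDs to these symbols, which found 1 ID for each of the 10 among 57736 IDs, and all 10 passed the filter on low counts that left 13980 genes for testing.

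RNA-seq was performed on HEC50B, an established endometrial cancer line, in 2 genotypes of PPP2R1A, the gene for the scaffold subunit of the phosphatase PP2A: the parental R183W substitution, and a derivative turned to wild type (WT) with CRISPR. Both were kept for 4 days in vehicle or in 50 µM WM1119, which inhibits the acetyltransferase KAT6A. There were 3 libraries of R183W cells with vehicle, 2 of R183W cells with WM1119, 3 of WT cells with vehicle and 3 of WT cells with WM1119. All groups share the HEC50B background, each genotype is 1 line, and the sources used here do not say whether the WT line came from 1 clone or several; effects of the edit and of the line's derivation cannot be told apart. The labels number the replicates without saying that they were separate cultures, so p-values measure only the spread between these libraries, which may be technical.

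As background, anti-apoptotic members bind and hold BH3-only proteins and the effectors, BH3-only proteins relay stress by neutralising the anti-apoptotic members or by engaging the effectors, and BAX and BAK1 form the pores that release cytochrome c. Much of the regulation of MCL1, BAX and BAK1 acts on the proteins through degradation, movement and shape, which RNA counts do not show. Several BH3-only genes are by contrast regulated through transcription, among them PMAIP1 (NOXA) and BBC3 (PUMA), known p53 targets, and BCL2L11 (BIM), a known FOXO target.

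The stretch just upstream of the start site is shown for the 4 members whose levels passed the test in the vehicle comparison of the genotypes or under WM1119 in both genotypes. Each is the 250 bases before the start, 5′ to 3′ on the gene's own strand, from RefSeq on GRCh38.p14; capitals mark matches to the motifs searched, and BCL2L1 has 2 listed starts.
BCL2L1 first window, chr20:31723964-31724213, minus strand: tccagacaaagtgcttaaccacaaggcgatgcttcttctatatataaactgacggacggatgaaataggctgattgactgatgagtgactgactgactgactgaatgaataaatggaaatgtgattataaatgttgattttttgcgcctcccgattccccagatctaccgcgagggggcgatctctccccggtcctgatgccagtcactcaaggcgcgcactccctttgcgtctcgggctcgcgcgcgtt
BCL2L1 second window, chr20:31722869-31723118, minus strand: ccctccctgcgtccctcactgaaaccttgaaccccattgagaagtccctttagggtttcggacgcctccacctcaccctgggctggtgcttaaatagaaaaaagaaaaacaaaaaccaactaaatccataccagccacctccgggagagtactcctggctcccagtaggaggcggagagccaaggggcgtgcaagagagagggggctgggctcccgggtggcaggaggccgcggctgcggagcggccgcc
PMAIP1, chr18:59899746-59899995, plus strand: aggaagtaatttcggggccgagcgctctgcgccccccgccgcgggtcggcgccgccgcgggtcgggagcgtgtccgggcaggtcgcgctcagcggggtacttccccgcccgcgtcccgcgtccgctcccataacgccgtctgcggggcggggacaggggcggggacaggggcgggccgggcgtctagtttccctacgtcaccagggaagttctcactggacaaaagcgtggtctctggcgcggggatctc
BCL2L11, chr2:111120664-111120913, plus strand: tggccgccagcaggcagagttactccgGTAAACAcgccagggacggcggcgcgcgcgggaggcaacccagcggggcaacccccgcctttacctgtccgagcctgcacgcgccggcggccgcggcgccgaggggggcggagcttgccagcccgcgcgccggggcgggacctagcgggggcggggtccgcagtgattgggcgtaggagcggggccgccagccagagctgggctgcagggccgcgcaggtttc
BBC3, chr19:47232668-47232917, minus strand: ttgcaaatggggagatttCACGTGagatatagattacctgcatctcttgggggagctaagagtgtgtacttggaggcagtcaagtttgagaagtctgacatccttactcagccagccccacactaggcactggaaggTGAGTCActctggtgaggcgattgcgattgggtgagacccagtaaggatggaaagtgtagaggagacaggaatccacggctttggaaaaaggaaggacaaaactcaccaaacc
Of the 10 members, 8 matched a window, which gave 10 windows; MCL1 and BIK had no entry. The motifs searched on both strands were AP-1 (TGANTCA, in 6.57% of all 35116 windows of the same length), CRE (TGACGTCA, 1.65%), TEAD (GGAATG, 11.9%), ATF4 and CEBP (TGATGNAA, 3.14%), FOXO (GTAAACA, 2.98%), the E-box (CACGTG, 6.34%), NF-kB (9.96%) and the p53 half-site (5.57%). BCL2L11 held the FOXO letters 223 bases before its start. BBC3 held the AP-1 letters TGAGTCA 113 bases and the E-box 232 bases before its start. BAX held the E-box at 4 places, 138, 93, 45 and 14 bases before its start. BAK1 held 1 p53 half-site match 73 bases before its start, and the first of 2 BMF windows held 1 NF-kB match 20 bases before its start. The windows of BCL2L1, PMAIP1 and BCL2 held none of these letters. A match describes letters in this window and is not evidence of binding.

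Libraries held 2609922 to 6065149 counts, the fewest in WT WM1119 replicate 3. Levels are CPM, counts divided by TMM-scaled library totals, and a gene without counts may stand at up to 0.494 CPM in the deepest library and 1.24 in the shallowest, at a limit of 3 counts that covers counting error only. WT WM1119 replicate 3 stood apart. Its log CPM correlated with those of its group at a mean of 0.927 across genes, against 0.942 to 0.975 for the other 10 libraries. Calls on members that change without this library are therefore given both ways. Counts of the other pathway genes called are given with all libraries only. Among the defining epithelial markers, EPCAM, KRT8, KRT18 and PAX8 were expressed, and SOX17 and PGR had no count in any library. KRT19, CDH1 and ESR1 had at most 4 counts in any single library. The fibroblast genes COL1A1 and PDGFRA were also expressed, while COL3A1 and DCN were at 0. Single epithelial markers differed in direction. Under vehicle KRT8 (log2 difference 0.64, adjusted p = 0.0024 in edgeR) and KRT18 (0.73, 0.00353) and MUC1 (1.59, 0.00329) were higher in R183W than in WT cells while EPCAM was lower (-0.64, 0.00936), and with WM1119 EPCAM rose in R183W cells from 38.3 ± 2.18 to 80.6 ± 5.8 CPM (1.07, 0.00162). The summed level of 10 epithelial markers was 2050 to 2340 CPM in R183W vehicle, 2090 to 2140 in R183W WM1119, 1270 to 1640 in WT vehicle and 1660 to 1980 in WT WM1119 libraries, most of it KRT18. The summed level of 7 fibroblast markers, most of it COL1A1, was 827 to 1050, 651 to 654, 715 to 867 and 943 to 1080 CPM in the same order. Of that list, PDGFRB averaged 5.8 ± 2.15 CPM in R183W vehicle, 0.27 ± 0.0438 in R183W WM1119, 38.4 ± 12.1 in WT vehicle and 22.4 ± 8.23 in WT WM1119 cells, and had 2 counts in all in R183W WM1119 libraries. It was called lower with WM1119 in R183W cells (adjusted p = 0.00749 in edgeR) and lower in R183W than in WT cells under vehicle (0.000132) and under WM1119 (6.97e-05). Leukocyte markers summed to 2.56 to 11.1 CPM over all libraries and endothelial markers to at most 0.854. The part of these marker differences in the results on the family was not tested. In bulk RNA, fewer cells of a kind and less RNA per cell cannot be told apart.

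Per kilobase of exon, MCL1 was the highest of the 3 anti-apoptotic members in all 4 groups. BAK1 was the higher of the 2 effectors, and PMAIP1 and BBC3 were the highest of the 5 BH3-only members. BAD, a BH3-only gene outside the 10, averaged 31 ± 0.375 CPM per kilobase in R183W WM1119 cells. BBC3 averaged 22.5 ± 1.4 and PMAIP1 12.3 ± 0.111 there. In WT WM1119 cells BAD averaged 28.1 ± 12, BBC3 26.9 ± 8.87 and PMAIP1 21.8 ± 4.37. Compared per kilobase of exon, MCL1 made up 72.3% to 75.6% of the summed anti-apoptotic level in R183W vehicle libraries and 81.9% to 88.8% in WT vehicle libraries. BCL2L1 made up 23.7% to 26.8% and 10.4% to 17.1% there, and BCL2 only 0.707% to 1.34% and 0.813% to 1.05%. Of the summed level of the 5 BH3-only members, PMAIP1 made up 47.8% to 55.4% and BBC3 39.8% to 43.3% in R183W vehicle libraries. In WT vehicle libraries PMAIP1 made up 45.3% to 52.7% and BBC3 37.3% to 43.2%. Outside this sum, BH3-only BAD, BID and HRK averaged 17.3 ± 3.4, 6.81 ± 0.341 and 1.31 ± 0.0844 CPM per kilobase in R183W vehicle cells. In WT vehicle cells these 3 genes averaged 15.1 ± 2.09, 6.42 ± 0.291 and 4.62 ± 0.588. In CPM per kilobase, mean levels in WT vehicle cells were 37.6 ± 6.42 (SD, n = 3) for MCL1, 36.1 ± 6.4 for PMAIP1, 30.2 ± 3.91 for BBC3, 17.8 ± 2.28 for BAK1, 6.11 ± 0.272 for BIK, 5.84 ± 0.684 for BCL2L1, 4.26 ± 1.24 for BAX, 1.39 ± 0.306 for BCL2L11, 0.884 ± 0.132 for BMF and 0.403 ± 0.0641 for BCL2. Within this order the means of MCL1 and PMAIP1 lay within their spread of each other, as did those of BIK and BCL2L1. BBC3 read 26.2, 34.1 and 30.2 in the 3 WT vehicle libraries. MCL1 (30.8, 38.3 and 43.6) and PMAIP1 (29.9, 35.7 and 42.7) stood above BBC3 in each.

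**Figure D1:**
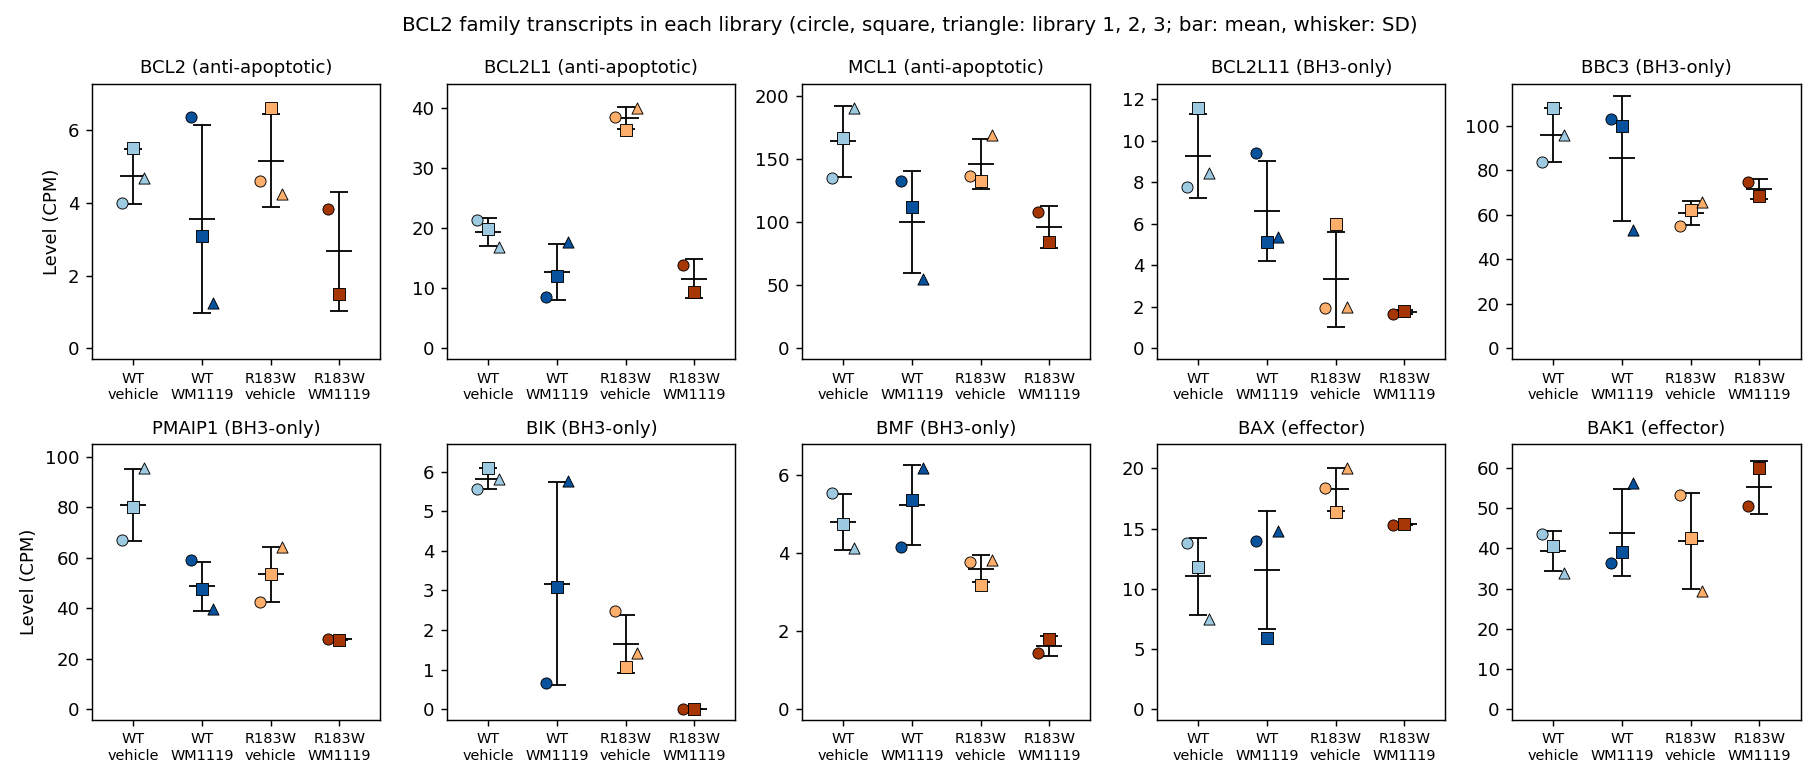
Level of each of the 10 genes in CPM (vertical axis, linear, own scale for each gene) in each library, by group; each point is 1 library, the bar is the group mean and the whiskers are the SD. BCL2L1 is high in the 3 R183W vehicle libraries, at 36.3 to 40 CPM, and BIK has no count in either R183W WM1119 library.

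The first comparison asked how WM1119 changed the family in R183W cells. BCL2L1, which encodes the anti-apoptotic BCL-XL, fell about 3-fold, and PMAIP1, which encodes the BH3-only protein NOXA that chiefly binds MCL1, fell 1.93-fold. No member rose past the threshold. These 2 of 10 members were called, both lower, against 4.64% of all genes called in this comparison with 1.99% higher and 2.65% lower. The libraries of the groups did not overlap for 9 of 10 members, against 46.8% of all genes. The median log2 difference over the 10 members was -0.90, and stayed there with BIK set to its bound, against 0.00 over all genes tested.

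BCL2L1 (ENSG00000171552) read 38.5, 36.3 and 40 CPM in the R183W vehicle libraries and 13.9 and 9.34 CPM in the R183W WM1119 libraries. Both WM1119 libraries lay far below all 3 vehicle libraries. The log2 difference was -1.71 (SE 0.28, adjusted p = 0.0039 in edgeR), a level 3.27-fold lower. The call was lost without R183W WM1119 replicate 2 (log2 difference -1.47, adjusted p = 0.0825 in edgeR) and held in the 18 other alternatives run.

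PMAIP1 (ENSG00000141682) read 42.6, 53.4 and 64.1 CPM in the R183W vehicle libraries and 27.8 and 27.4 CPM with WM1119, again without overlap. The log2 difference was -0.95 (SE 0.23, adjusted p = 0.0307 in edgeR), a level 1.93-fold lower. The call was lost without R183W vehicle replicate 2 (0.093) or 3 (0.123), WT vehicle replicate 2 (0.0507) or R183W WM1119 replicate 1 (0.201) or 2 (0.237), and in limma-voom (0.053), all as adjusted p.

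The remaining BH3-only genes of R183W cells did not pass the test. BIK, a BH3-only protein of the endoplasmic reticulum, had 15, 5 and 7 counts in the vehicle libraries and none in either WM1119 library. Pooled over the group, BIK was at least 4.3-fold lower with WM1119 (adjusted p = 0.0695 in edgeR). This bound takes 3 counts over the group as the limit and leaves out the spread of the vehicle libraries. Without WT WM1119 replicate 1 or 3 the edgeR adjusted p of BIK was 0.0227 and 0.0215. It was 0.00543 without a filter on low counts and 0.0283 in DESeq2. BMF, a BH3-only protein bound to the actin motor complex in healthy cells, read 3.78, 3.2 and 3.84 CPM with vehicle and 1.44 and 1.81 CPM with WM1119, a log2 difference of -1.15 (SE 0.46, adjusted p = 0.175 in edgeR). BCL2L11, which encodes BIM, a BH3-only protein that binds every anti-apoptotic member, read 1.97, 5.98 and 2.02 CPM and then 1.68 and 1.81 CPM (log2 difference -0.90, SE 0.6, adjusted p = 0.436 in edgeR). Its R183W vehicle replicate 2 stood well above the other 4, and without it the log2 difference of BCL2L11 was -0.20. BBC3, which encodes PUMA, read 55, 62.1 and 65.5 CPM with vehicle and 74.7 and 68.4 CPM with WM1119 (log2 difference 0.23, SE 0.23, adjusted p = 0.627 in edgeR).

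MCL1, the most abundant anti-apoptotic transcript, read 137, 133 and 169 CPM with vehicle and 108 and 84.3 CPM with WM1119 in R183W cells. The groups did not overlap, but the log2 difference of -0.60 (SE 0.28) missed the threshold (adjusted p = 0.258 in edgeR). It was past it without WT WM1119 replicate 3 (0.0235), without a filter on low counts (0.022) and in a fit of the 2 groups alone (0.00612). BCL2 differed by -0.91 on the log2 scale (SE 0.58, adjusted p = 0.414 in edgeR), from 4.25 to 6.62 CPM with vehicle to 3.83 and 1.51 CPM. It was -1.77 without R183W WM1119 replicate 1 and -0.43 without replicate 2, not called in either case. The effectors gave log2 differences of -0.25 for BAX (95% interval -0.99 to 0.48) and 0.39 for BAK1 (-0.14 to 0.93), neither called.

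In WT cells the same inhibitor lowered PMAIP1, the only member of the 10 to pass the test. This share compares with 4.86% of all genes called with 2.33% higher and 2.53% lower. Groups did not overlap for 2 of 10 members, PMAIP1 and MCL1, against 22.3% of all genes, and the median log2 difference over the members was -0.40, against 0.00 over all genes.

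PMAIP1 read 66.8, 79.9 and 95.3 CPM in the WT vehicle libraries and 58.9, 47.4 and 39.5 CPM with WM1119. Every WM1119 library lay below every vehicle library. The log2 difference was -0.72 (SE 0.19, adjusted p = 0.0484 in edgeR), a level 1.65-fold lower. This call lay close to the threshold: it held without R183W vehicle replicate 1, WT vehicle replicate 1 or WT WM1119 replicate 1, was lost without any 1 of the other 8 libraries (adjusted p 0.0572 to 0.196; 0.0727 without WT WM1119 replicate 3), and was lost in limma-voom (0.0539) and in a fit of the 2 groups alone (0.14).

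BCL2L1 read 21.4, 19.8 and 16.9 CPM in WT vehicle libraries and 8.55, 12 and 17.7 CPM with WM1119, where only library 3 reached the vehicle range. The log2 difference was -0.64 (SE 0.25, adjusted p = 0.158 in edgeR), and without WT WM1119 replicate 3 it was -0.91 (adjusted p = 0.0293 in edgeR). MCL1 read 135, 167 and 191 CPM with vehicle and 133, 112 and 54.8 CPM with WM1119. Its log2 difference was -0.70 (SE 0.25, adjusted p = 0.12 in edgeR). Replicate 3 was the lowest by far: without it the log2 difference shrank to -0.42 (adjusted p = 0.149 in edgeR), and without WT WM1119 replicate 1 it was -0.96 (adjusted p = 0.0305 in edgeR). The MCL1 difference was also called without a filter on low counts (0.000826) and in no other alternative. BIK read 5.56, 6.08 and 5.82 CPM and then 0.657, 3.08 and 5.77 CPM (log2 difference -0.98, SE 0.6, adjusted p = 0.379 in edgeR). This BIK value turned on single libraries, at -1.66 without WT WM1119 replicate 3 and -0.44 without replicate 1, with no call either way. The log2 differences of the other 6 members ran from -0.46 for BCL2L11 to 0.14 for BAK1, with no call. Without WT WM1119 replicate 3 they ran from -0.34 for BCL2L11 to 0.09 for BBC3, again with no call.

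The interaction asked whether the inhibitor's effect differed between the genotypes, as the log2 change in R183W minus that in WT cells. No member of the 10 passed by edgeR, against 0.286% of all genes, and none by DESeq2, limma-voom or any other alternative run. At an unadjusted p under 0.05 there were 3 members, BCL2L1, BIK and BMF, against 9.30% of all genes. BCL2L1 had an interaction of -1.07 on the log2 scale (SE 0.37, 95% interval -1.87 to -0.27, adjusted p = 0.348 in edgeR). BMF had -1.26 (SE 0.57, 95% interval -2.49 to -0.03, adjusted p = 0.522 in edgeR). PMAIP1, called in both genotypes, had -0.23 (95% interval -0.87 to 0.41, adjusted p = 0.886 in edgeR). A larger effect of WM1119 on BCL2L1 in R183W cells than in WT cells is therefore not shown by this test.

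**Figure D2:**
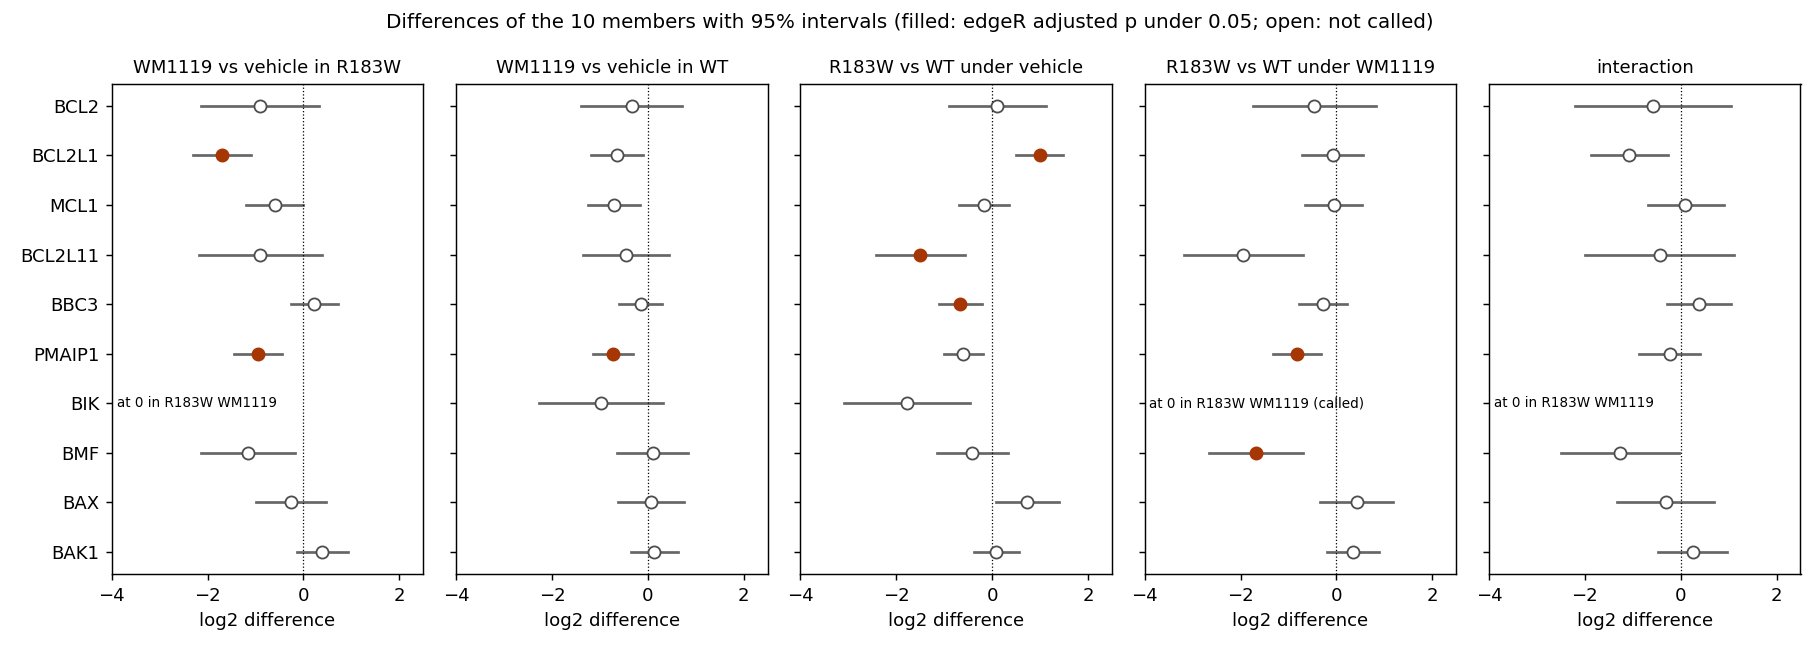
Log2 difference (horizontal axis) of each of the 10 genes in the 4 comparisons and the interaction; points are edgeR estimates, lines their 95% intervals, and filled points passed at an adjusted p under 0.05. BIK is written as at 0 where the R183W WM1119 libraries held no count; PMAIP1 is filled in 3 of the 4 comparisons, in each case below 0.

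The genotypes were then compared under vehicle. R183W cells held about 2-fold more BCL2L1 than WT cells and less of the BH3-only genes BCL2L11 and BBC3. The 3 calls among 10 members compare with 13.0% of all genes called, 6.82% higher and 6.17% lower. Groups did not overlap for 7 of 10 members, against 37.8% of all genes. All 5 BH3-only members had log2 differences below 0, with a median of -0.66, against -0.01 over all genes, although only 2 of the 5 were called. Outside the 10 members, the BH3-only genes BAD (0.21) and BID (0.08) lay above 0 without a call, and HRK (-1.82) was called lower.

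BCL2L1 read 36.3 to 40 CPM in the 3 R183W vehicle libraries and 16.9 to 21.4 CPM in the 3 WT vehicle libraries. The log2 difference was 0.99 (SE 0.23, adjusted p = 0.0122 in edgeR), a level 1.98-fold higher in R183W cells, without overlap. It lost its call without WT vehicle replicate 3 (0.90, adjusted p = 0.0604 in edgeR) and kept it in the 18 other alternatives.

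BCL2L11 (ENSG00000153094) read 1.97, 5.98 and 2.02 CPM in R183W and 7.79, 11.6 and 8.45 CPM in WT vehicle libraries, 50 against 141 counts in all. The log2 difference was -1.50 (SE 0.43, adjusted p = 0.0365 in edgeR), a level 2.83-fold lower in R183W cells. Without R183W vehicle replicate 2, the highest of its group, the log2 difference was -2.20, and over the other libraries left out it was as small as -1.21. Its call was lost without R183W vehicle replicate 1 (0.17) or 3 (0.134), WT vehicle replicate 2 (0.149) or 3 (0.0768), or R183W WM1119 replicate 1 (0.0518) or 2 (0.0523), all as adjusted p. The noncoding gene MIR4435-2HG overlaps BCL2L11 on the opposite strand and was far more abundant, at 476 to 1206 counts a library; it averaged 160 CPM in R183W vehicle, 132 in R183W WM1119, 229 in WT vehicle and 181 in WT WM1119 cells. The sources used here do not say whether counting used strand, and the part of MIR4435-2HG reads in the BCL2L11 values was not tested.

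BBC3 (ENSG00000105327) read 55, 62.1 and 65.5 CPM in R183W and 83.5, 108 and 95.9 CPM in WT vehicle libraries, a log2 difference of -0.66 (SE 0.21, adjusted p = 0.0498 in edgeR). The groups did not overlap, but the call sat at the threshold. It held without WT WM1119 replicate 1 or 3 and was lost without any 1 of the other 9 libraries (adjusted p 0.0565 to 0.208). It was lost too with RLE (0.05) and upper-quartile scaling (0.0566).

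The other BH3-only members lay just short of the threshold or further from it. PMAIP1 had a log2 difference of -0.60 (SE 0.19, adjusted p = 0.0536 in edgeR) and was called without R183W vehicle replicate 3, WT vehicle replicate 1 or WT WM1119 replicate 1 or 3 (adjusted p 0.0158 to 0.0465), without a filter on low counts (0.0165), in DESeq2 (0.0335), in limma-voom (0.0351) and in a fit of the 2 groups alone (0.0219). BIK read 2.47, 1.07 and 1.42 CPM in R183W and 5.56, 6.08 and 5.82 CPM in WT vehicle libraries, which did not overlap. Its log2 difference was -1.78 (SE 0.6, adjusted p = 0.0726 in edgeR), and it was called without WT WM1119 replicate 1 or 3 (adjusted p 0.0224 to 0.0258), without a filter on low counts (0.0163), in DESeq2 (0.0431), in limma-voom (0.0391) and in a fit of the 2 groups alone (0.00854). BMF differed by -0.41 (SE 0.34, adjusted p = 0.477 in edgeR).

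Neither effector passed. BAX, whose product moves from the cytosol to mitochondria on activation, read 18.4, 16.4 and 20 CPM in R183W and 13.8, 11.8 and 7.51 CPM in WT vehicle libraries (log2 difference 0.73, SE 0.3, adjusted p = 0.132 in edgeR, and 0.0411 in a fit of the 2 groups alone). BAK1, resident in the mitochondrial membrane, differed by 0.09 (95% interval -0.38 to 0.57), MCL1 by -0.17 (-0.69 to 0.36) and BCL2 by 0.11 (-0.89 to 1.12).

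Under WM1119 the genotype difference of BCL2L1 was not detected, while 3 BH3-only genes were lower in R183W cells. PMAIP1, BIK and BMF were called, 3 of 10 members, against 8.56% of all genes called with 4.64% higher and 3.92% lower. Groups did not overlap for 5 of 10 members, BIK among them, against 34.7% of all genes, with 0 counts read as 0 CPM. All 5 BH3-only members lay below 0 here too, with a median log2 difference of -1.67 against -0.02 over all genes. The median is the same with BIK at its bound. Outside the 10, BAD averaged 52.9 ± 0.641 CPM in R183W and 48 ± 20.4 in WT cells with WM1119, and BID 24.5 ± 0.942 and 25.5 ± 1.24. The R183W WM1119 libraries enter both this comparison and the first, so those results are not independent.

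PMAIP1 read 27.8 and 27.4 CPM in R183W and 58.9, 47.4 and 39.5 CPM in WT libraries with WM1119, a log2 difference of -0.83 (SE 0.23, adjusted p = 0.0412 in edgeR). BIK had no count in R183W libraries and 3, 12 and 14 counts in WT libraries. Pooled over the group, BIK was at least 6.65-fold lower in R183W cells (adjusted p = 0.021 in edgeR). This bound takes 3 counts over the group as the limit. It leaves out the spread of the WT libraries, at 0.657, 3.08 and 5.77 CPM. BMF read 1.44 and 1.81 CPM in R183W and 4.16, 5.38 and 6.18 CPM in WT libraries, a log2 difference of -1.67 (SE 0.46, adjusted p = 0.0373 in edgeR), a level 3.18-fold lower. For all 3 the libraries of one genotype lay below those of the other, for BIK with 0 counts read as 0 CPM. BIK in WT WM1119 replicate 1, at 0.657 CPM, lay below the 3-count limits of the R183W WM1119 libraries, 0.718 and 0.904 CPM. Its separation is therefore not established. These calls depended on the R183W WM1119 pair: without its library 1 or 2 the edgeR adjusted p was 0.209 or 0.229 for PMAIP1 and 0.15 or 0.119 for BIK, and it rose to at most 0.229 for BMF over the libraries left out. PMAIP1 was also lost without R183W vehicle replicate 2, WT vehicle replicate 2 or WT WM1119 replicate 1 or 2, and BMF without any R183W vehicle library, WT vehicle replicate 2 or WT WM1119 replicate 2. All 3 were lost in limma-voom and in a fit of the 2 groups alone, and BMF also without a filter on low counts (0.0801).

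BCL2L11 read 1.68 and 1.81 CPM in R183W and 9.42, 5.13 and 5.36 CPM in WT libraries with WM1119, a log2 difference of -1.94 (SE 0.58) that missed the threshold (adjusted p = 0.0556 in edgeR). It was called without R183W vehicle replicate 2 or WT WM1119 replicate 3 (adjusted p 0.0219 to 0.0286), without a filter on low counts (0.00973) and in DESeq2 (0.0258). BBC3 differed by -0.27 (SE 0.23, adjusted p = 0.529 in edgeR) and was called without WT WM1119 replicate 3 (0.0253), which read 53.1 CPM against 103 and 100 CPM in its group. BCL2L1 differed by -0.08 (95% interval -0.71 to 0.55, adjusted p = 0.9 in edgeR). The vehicle difference of 0.99 had a 95% interval of 0.49 to 1.48. Whether the genotype difference itself changed with treatment is the interaction given above. The interaction had a 95% interval of -1.87 to -0.27 and did not pass after adjustment over all genes.

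Levels of the 10 members were also summed by role per kilobase of exon. The anti-apoptotic total was 45.4 ± 4.88 CPM per kilobase (SD, n = 3) in R183W vehicle and 25.8 ± 5.02 (n = 2) in R183W WM1119 cells, and 43.8 ± 5.8 (n = 3) in WT vehicle and 27 ± 8.06 (n = 3) in WT WM1119 cells. In both genotypes every WM1119 library lay below every vehicle library. The lowest total, 18, was that of WT WM1119 replicate 3; replicates 1 and 2 of that group had 33.5 and 29.6. The total of the 5 BH3-only members, in the same order, was 45.9 ± 5.95 and 35.4 ± 1.41 in R183W cells. In WT cells it was 74.7 ± 9.13 and 54 ± 10.2, with 42.4 in WT WM1119 replicate 3 and 61.8 and 57.8 in replicates 1 and 2. For the BH3-only total too, every WM1119 library lay below every vehicle library of its genotype. The highest WM1119 and lowest vehicle libraries were 36.4 and 39.9 in R183W and 61.8 and 64.2 in WT cells. The lowest WT vehicle library, at 64.2, lay above the highest R183W vehicle library, at 51.8. BAD, a BH3-only gene outside this sum, averaged 17.3 ± 3.4 with vehicle and 31 ± 0.375 with WM1119 in R183W cells. In WT cells BAD averaged 15.1 ± 2.09 and 28.1 ± 12. Neither BAD difference was called (log2 difference 0.83 and 0.88, adjusted p = 0.112 and 0.0669 in edgeR). BID and HRK, also outside the sum, differed by -0.31 and 0.01 in R183W and by -0.16 and 0.13 in WT cells, without a call. The effector total ran from 18.2 to 33 over the 11 libraries, and its groups overlapped in each of the 4 comparisons. These totals are descriptions and were given no test.

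Within the anti-apoptotic total, the share of BCL2L1 in R183W cells was 23.7% to 26.8% with vehicle and 12.7% to 14.3% with WM1119, close to the 10.4% to 17.1% of WT vehicle libraries. The share in WT WM1119 libraries was 7.71% to 29.7%, which overlapped that of WT vehicle libraries. Within the BH3-only total of R183W cells, PMAIP1 had 47.8% to 55.4% with vehicle and 34.1% to 35.7% with WM1119, and BBC3 39.8% to 43.3% and 62.6% to 64.5%. The exchange came with lower PMAIP1 and a BBC3 level that did not pass the test. In WT WM1119 libraries BBC3 had 39.4% to 54.7%, which overlapped the vehicle range of WT cells, and PMAIP1 36.7% to 42.7%, which lay below it.

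**Figure D3:**
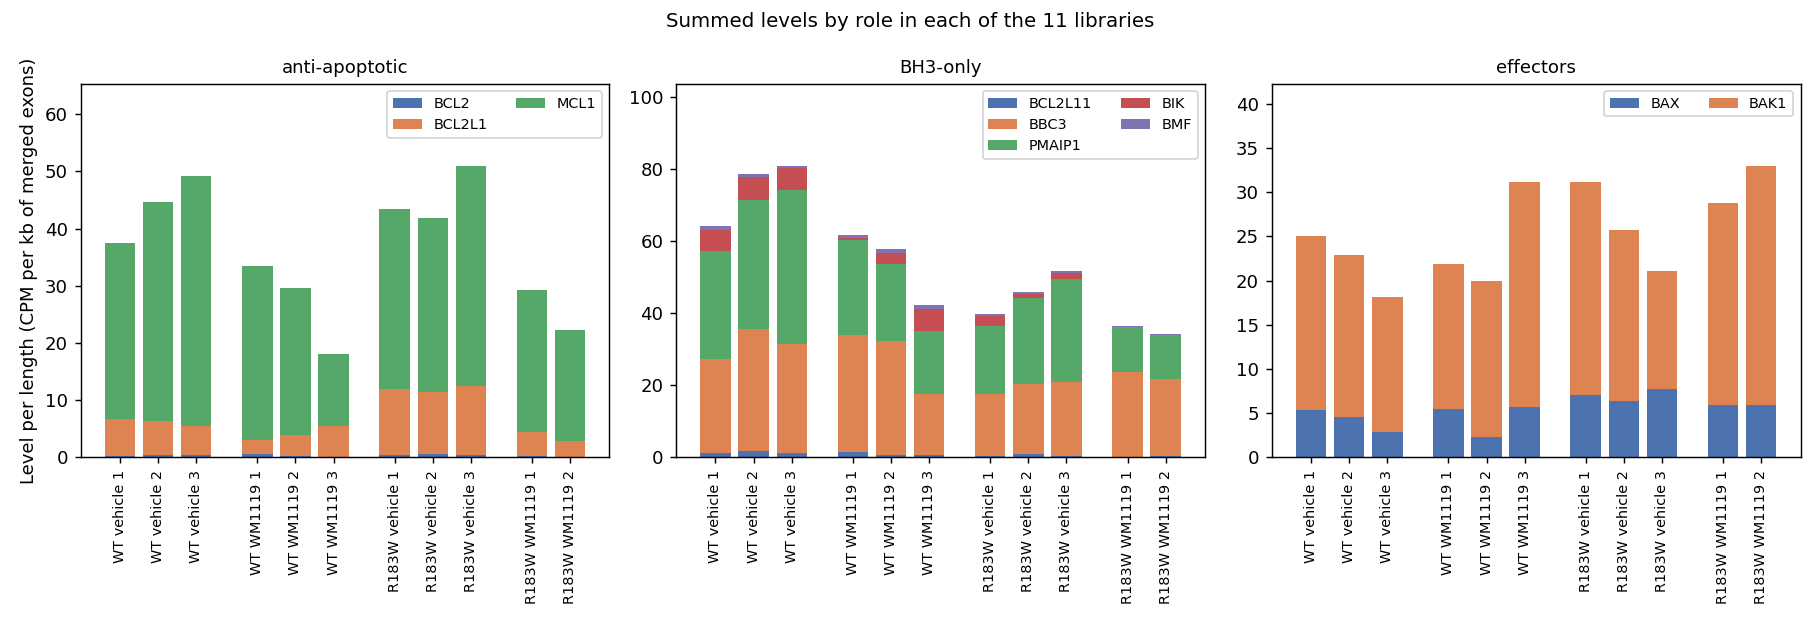
Summed level of the anti-apoptotic, BH3-only and effector genes among the 10 members in CPM per kilobase of exon (vertical axis, linear) in each library. Each bar is 1 library, from 0, and its colours are the genes summed. The BH3-only total of the 3 WT vehicle libraries, 64.2 to 81, lies above that of the 3 R183W vehicle libraries, 39.9 to 51.8.

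Members also varied together across libraries. Over the 11 libraries, log CPM of BIK and BMF correlated at r = 0.89, BCL2 and MCL1 at 0.84, BCL2L11 and PMAIP1 at 0.74 and MCL1 and PMAIP1 at 0.73. BAK1 ran opposite to PMAIP1 (r = -0.77) and MCL1 (r = -0.75). The libraries share groups and depth, so these values describe the pattern only. Among 8915 genes compared, CITED4 (r = 0.955), ADM (0.953) and CTPS1 (0.951) followed BCL2L1 most closely, and FXYD6 (0.968), MCAM (0.965) and TFAP2C (0.947) followed BIK.

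Other genes of the pathway were read from 5 lists with 67 genes, of which 61 were tested: further BCL2 family genes, the apoptosome with caspases and IAPs, death receptors, transcription regulators of BH3-only genes, and regulators of MCL1 turnover and BH3-only sequestration. With WM1119 in R183W cells, none was higher and 2 were lower, with a median log2 difference of -0.11. In WT cells 1 was higher and 4 were lower (median -0.02). R183W against WT under vehicle gave 1 higher and 7 lower (median -0.03), and under WM1119 1 higher and 3 lower (median -0.12). Over all genes tested, 4.64%, 4.86%, 13.0% and 8.56% were called in the same order.

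HRK, a further BH3-only gene best known in neurons, was lower in R183W cells under both treatments. Vehicle cells of the R183W line had 8.95 ± 0.579 CPM (SD, n = 3) and those of the WT line 31.7 ± 4.03 (n = 3), a log2 difference of -1.82 (SE 0.2, adjusted p = 4.09e-05 in edgeR). With WM1119 it read 8.97 ± 1.19 (n = 2) and 34.8 ± 5.69 (n = 3), a log2 difference of -1.94 (SE 0.24, adjusted p = 0.000169 in edgeR). HRK did not change with WM1119 past the threshold in either genotype (log2 differences 0.01 and 0.13), and both genotype calls held in all 19 alternatives.

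BIRC3, which encodes the inhibitor of apoptosis cIAP2 and is an NF-kB target, stood at 59.8 ± 9.57 CPM in R183W and 128 ± 3.21 in WT vehicle cells, a log2 difference of -1.10 (SE 0.17, adjusted p = 0.000795 in edgeR). In WT cells it fell to 59.7 ± 14.4 with WM1119 (log2 difference -1.12, SE 0.17, adjusted p = 0.00239 in edgeR). In R183W cells it was 52.1 ± 4.67 with WM1119 (log2 difference -0.20, adjusted p = 0.624 in edgeR). Both BIRC3 calls held in all 19 alternatives, and its interaction of 0.92 (SE 0.26) missed the threshold (adjusted p = 0.209 in edgeR).

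E2F1, a cell cycle factor that can activate BH3-only genes, was the 1 listed gene with an interaction past the threshold, at -1.68 (SE 0.3, adjusted p = 0.0313 in edgeR). It read 59.1 ± 7.04 CPM with vehicle and 33 ± 7.04 with WM1119 in R183W cells (log2 difference -0.85, SE 0.22, adjusted p = 0.0471 in edgeR). The WT cells had 27.9 ± 2.81 and 50.1 ± 11.8 (0.84, SE 0.2, adjusted p = 0.0294 in edgeR). Its genotype difference under vehicle, 1.09 (SE 0.2, adjusted p = 0.00255 in edgeR), held in all 19 alternatives. The interaction held without WT vehicle replicate 1 or WT WM1119 replicate 1 or 3 and was lost without any 1 of the other 8 libraries (adjusted p 0.079 to 0.276), as was the change in R183W cells (0.0551 to 0.335). The change in WT cells was lost without R183W vehicle replicate 3, WT vehicle replicate 2 or 3 or WT WM1119 replicate 2 (0.0512 to 0.121). Over all alternatives, the interaction call of E2F1 was lost in 9 of 18. The call in R183W cells was lost in 9 of 19 and that in WT cells in 6 of 19.

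The other called genes kept their direction in every alternative run. Under vehicle, R183W cells held less YWHAZ, a 14-3-3 protein that sequesters phosphorylated BAD (966 ± 75.5 against 1590 ± 81.4 CPM, log2 difference -0.72, adjusted p = 0.00131 in edgeR), a call kept in all alternatives. FOXO3, a factor that drives BCL2L11, was lower at 91.3 ± 7.78 against 131 ± 5.38 CPM (-0.52, adjusted p = 0.0131 in edgeR). The initiator caspase CASP8 (-0.88, adjusted p = 0.0333 in edgeR) and the mitochondrial protease HTRA2 (-0.71, adjusted p = 0.0301 in edgeR) were also lower. The nuclease DFFB had 2 counts in 3 R183W vehicle libraries and 28 in WT ones (adjusted p = 0.0249 in edgeR). Leaving out 1 library lost the FOXO3 call for R183W vehicle replicate 1 or 3 or WT vehicle replicate 2 (0.0548 to 0.0688). It lost the call of CASP8 for 6 libraries (0.0516 to 0.131), that of HTRA2 for 5 (0.0525 to 0.125) and that of DFFB for 4 (0.0624 to 0.0873). Over all alternatives, the losses were 3 of 19 for FOXO3, 7 of 19 for CASP8, 6 of 19 for HTRA2 and 4 of 16 for DFFB.

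Under WM1119, FOXO3 was lower in R183W cells (-0.85, adjusted p = 0.00206 in edgeR; 0.0531 without R183W WM1119 replicate 1), and so was YWHAZ (-0.60, adjusted p = 0.0132 in edgeR; lost for 3 libraries, 0.0636 to 0.131). BNIP3, a mitophagy receptor with a BH3-like stretch, was higher (0.87, adjusted p = 0.026 in edgeR; lost for 3 libraries, 0.0518 to 0.323). Over all 19 alternatives, these genotype calls of FOXO3, YWHAZ and BNIP3 under WM1119 were lost in 1, 4 and 5. With WM1119 in WT cells BNIP3 fell (-0.78, adjusted p = 0.0407 in edgeR), as did FOXO1 (-0.74, 0.0431), another FOXO factor, and YWHAZ (-0.46, 0.0401). In R183W cells TRIB3, a stress-induced pseudokinase, fell from 130 ± 6.38 to 74.1 ± 5.58 CPM (-0.81, adjusted p = 0.0471 in edgeR). These last 4 calls were lost without any 1 of 8 or 9 of the 11 libraries (adjusted p 0.0531 to 0.299). Over all 19 alternatives they were lost in 10 to 12.

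**Figure D4:**
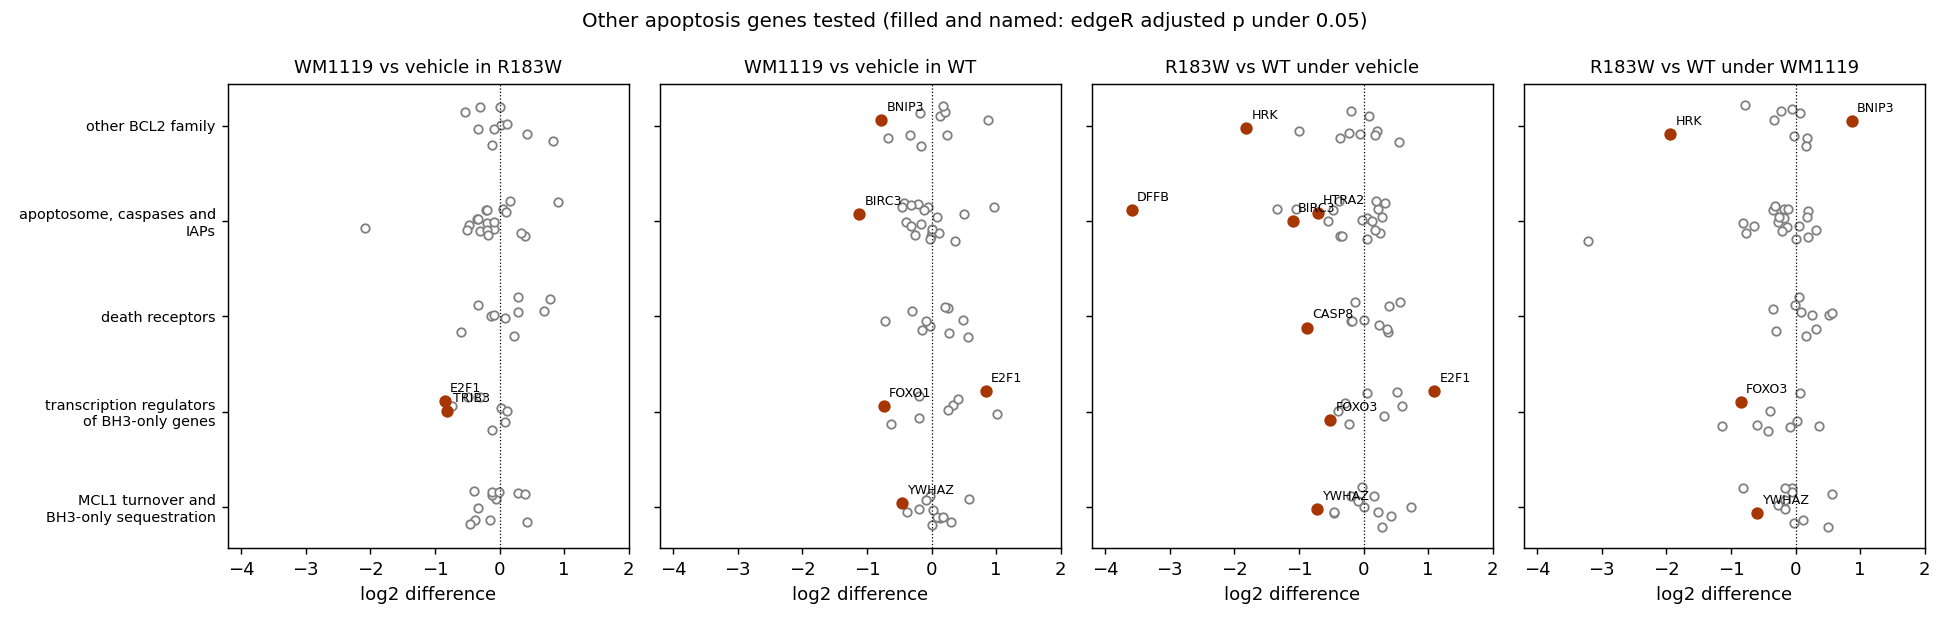
Log2 difference (horizontal axis) of the tested genes of 5 apoptosis lists (rows) in the 4 comparisons; each point is a gene, and filled, named points passed at an edgeR adjusted p under 0.05. DFFB is left out where the R183W WM1119 libraries held no count; HRK is the lowest named BH3-only gene in both comparisons of the genotypes, at -1.82 and -1.94.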

How the data were processed

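The 11 libraries were total RNA on RNeasy columns with DNase, made into libraries with a ScriptSeq kit, per the labels' protocols, whose molecule field names polyA RNA. The authors deposited estimated counts (expected counts) per gene, here whole numbers, made with STAR and RSEM on hg19 according to the submitters' processing notes; versions, annotation and strand setting are not given in the sources used here. GENCODE 29 gave names and exon lengths only: 51959 of 57736 IDs matched, and unmatched IDs held 1.01% of the counts. RefSeq promoters (GRCh38.p14) gave sequences and were not joined to counts by position. Of the 10 members, 7 overlap another annotated gene and BAK1 has 2 named pseudogenes, so their levels may include reads of those copies; apart from MIR4435-2HG, the overlapping genes found in the table held at most 1 count.

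Counts were fitted with edgeR 4.0.16 (R 4.3.3; filterByExpr, TMM, quasi-likelihood F test, two-sided) over all 11 libraries with 4 group means. Genes tested held at least 99.7% of the counts of a library, and the biological coefficient of variation was 19.6%. P-values were adjusted by Benjamini-Hochberg over 13980 genes and called under 0.05; intervals are 95% and for single estimates. Alternatives were DESeq2 1.42.0, limma-voom 3.58.1, other scaling factors, no filter, robust shrinkage, only the groups compared, a replicate block and each library left out; the pathway genes among the alternatives were added after seeing the data. All 10 members are named, and of the 5 pathway lists those called, at most 4 a list and comparison. Members and lists were chosen with earlier results of these data known.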

Additional observations from a re-analysis of the deposited data

Results flagged for a closer look

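The effect of WM1119 on E2F1 differed between the genotypes by the test of the interaction: the log2 change was -0.85 in R183W cells and 0.84 in WT cells, and the interaction was -1.68 (SE 0.3, adjusted p = 0.0313 in edgeR). E2F1 was lower in both R183W WM1119 libraries than in all 3 vehicle libraries of that line and higher in all 3 WT WM1119 libraries than in all 3 of theirs. The same test passed for COL1A1, a collagen gene read here as a fibroblast marker, with an interaction of -1.02 (SE 0.17, adjusted p = 0.0252 in edgeR): R183W cells had 833 ± 103 CPM (SD, n = 3) with vehicle against 565 ± 1.87 (n = 2) after WM1119, and WT cells 613 ± 38.7 against 842 ± 22.8 (n = 3 each). Other fibroblast markers did not follow COL1A1 in WT cells with WM1119, where the log2 difference was 0.46 for COL1A1, -0.05 for PDGFRA, -0.75 for PDGFRB and -1.42 for LUM, the last 3 not called. COL1A1 was not followed singly under the alternatives. No gene passed the interaction test with a replicate block or without R183W vehicle replicate 2 or 3. The calls of E2F1 and COL1A1 were therefore lost there. None of the 10 BCL2 family members passed the interaction test.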

How the results depend on the processing

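Depth limits the least abundant members: BIK, BMF, BCL2L11 and BCL2 rest on 0 to 141 counts a group, and the group with WM1119 in R183W cells has 2 libraries. Scaling with RLE or upper-quartile factors moved the median of all genes by at most 0.028 on the log2 scale.

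The members called were 2 in R183W with WM1119, 1 in WT with WM1119, 3 between genotypes under vehicle and 3 under WM1119. Without a filter on low counts they were 4, 2 and 5 in the first 3 comparisons, in DESeq2 5 under vehicle, in limma-voom 1, 0, 5 and 0, and with only the groups compared 0 in WT, 6 under vehicle and 0 under WM1119. Leaving out 1 library gave ranges of 0 to 4, 0 to 2, 0 to 5 and 0 to 5, and 0 for the interaction; without WT WM1119 replicate 3 alone the counts were 4, 1, 5 and 5, and without R183W WM1119 replicate 2 alone they were 0, 0, 1 and 0. The genes called over the whole table, 649, 680, 1817, 1197 and 40 for the interaction, became 1110, 1287 and 191 (interaction) without a filter in R183W, WT and the interaction, 975, 1115 and 169 in DESeq2, and 2406, 139, 2929 and 319 with only the groups compared. Their ranges with 1 library left out were 118 to 1600, 247 to 1392, 965 to 3151, 386 to 2895 and 0 to 192. In each of these cases the cause was not tested.

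Same-numbered libraries deviated together in 2 of 15 pairs (r over 0.1, range -0.391 to 0.137). Deviations within groups of 2 or 3 libraries are tied to each other, so these values cannot settle whether the numbers pair the samples. With a replicate block the members called were 1, 0, 1, 0 and 0, and the genes called 261, 287, 1189, 678 and 0. The block ended each member call but those of BCL2L1, with adjusted p from 0.0543 (BCL2L11 under vehicle) to 0.117 (PMAIP1 in WT with WM1119).

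Some differences that were not called changed sign, the cause not tested. In limma-voom BAX in WT with WM1119 was -0.01 and BCL2L1 between genotypes under WM1119 was 0.01. With 1 library left out, the log2 ranges that crossed 0 were, in WT with WM1119, BAX -0.16 to 0.37, BAK1 -0.06 to 0.26, BCL2 -1.05 to 0.01, BBC3 -0.30 to 0.09 and BMF -0.01 to 0.26. Under vehicle they were BAK1 -0.11 to 0.29 and BCL2 -0.10 to 0.25. Under WM1119 they were BCL2 -1.32 to 0.26, BCL2L1 -0.42 to 0.18 and MCL1 -0.36 to 0.19. For the interaction they were BCL2 -1.44 to 0.15, BCL2L11 -0.74 to 0.26 and MCL1 -0.20 to 0.36.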
